A study of Mus musculus with 721 samples.

Results

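The genes described here encode the nuclear part of oxidative phosphorylation. They are the 87 rows, of 24483 on chromosomes 1 to 19, whose symbols carry the stems of the Nduf, Sdh, Uqcr, Cox4 to Cox8 and Atp5 families, with 1 pseudogene row left out. The rule used symbols only and no measured value. By known function the 87 genes hold 34 subunits of complex I, 4 complex I assembly factors, 4 subunits of complex II, 8 of complex III, 19 subunits or paralogs of complex IV and 15 of ATP synthase. A further 3 genes match by name alone and are not subunits. These are Cox4nb, a subunit of the endoplasmic reticulum membrane complex now called Emc8, and Atp5s and Atp5sl, whose products are related to assembly factors.

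RNA was read from single cells of mouse embryos by a Smart-seq2 protocol (G&T-seq), in which the polyadenylated RNA of a cell is amplified and sequenced. Some libraries, between 9 at E3.5 and 67 at E5.5, held a pair of cells. All embryos were Wild Type and of strain C57Bl/6Babr. They were taken at E3.5, where the inner cell mass (ICM) was freed of trophectoderm by immunosurgery, at E4.5, where epiblast and primitive endoderm (PrE) come from the same isolated mass, and after implantation at E5.5 or E6.5. Cells titled E6.75 were kept with E6.5.

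Nuclear and mitochondrial genomes share the task of building this machinery. Complex I and complex II pass electrons from NADH and succinate to ubiquinone, complex III passes them on to cytochrome c, complex IV reduces oxygen, and ATP synthase uses the proton gradient that complexes I, III and IV maintain. Catalytic and core subunits do the chemistry, whereas many small nuclear subunits stabilise the complexes. Several complex IV subunits exist as pairs of paralogs, with a ubiquitous form and a form best known from muscle, testis or hypoxic cells. Early mouse embryos rely on oxidation of pyruvate, and the period around implantation is known for a growing use of glycolysis.

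Lineages were assigned here by clustering cells without the 87 genes and by markers, since no lineage is given for most cells. The embryo was the replicate, and the raw counts of its cells were added up within each class where there were 3 or more. This gave 10 sums of E3.5 ICM (99 cells), 5 of E4.5 epiblast-like (29 cells), 5 of E4.5 PrE-like (76 cells), 8 of E5.5 epiblast-like, 12 of E6.5 epiblast-like and 8 of E6.5 endoderm-like cells (39 cells). At E3.5, 9 cells whose titles carry no embryo number count as 1 embryo. Sums held 1476466 to 49484352 counts, and genes with a few counts are limited by that depth. Endoderm markers summed to 17250 to 29390 counts per 1000000 (CPM) in E4.5 PrE-like embryos and to 1919 to 6570 CPM in epiblast-like sums of the same embryos. CPM of single genes below are divided by the normalization factor of their sum, whereas summed CPM, shares, paralog ratios, lower bounds and untested differences rest on unscaled counts. Trophoblast markers summed to 401 to 2004 CPM at E3.5 and to at most 515 CPM in the epiblast-like classes, with 508 to 2119 CPM in E6.5 endoderm-like sums, and their part in the results was not tested. Some plate names recur between stages. P1 is named for E4.5 cells, for E5.5 cells and for E6.5 cells, and P2 for E4.5 and E6.5 cells. The plate set P11.P6.P10 is named for both E3.5 and E5.5 cells. Whether a repeated name means the same plate is not given, so that stage and plate cannot be told apart. In such sums a lower level per cell cannot be told apart from fewer cells that express a gene.

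The summed level of the 87 genes had its highest means at E4.5, and its E3.5 and E6.5 values overlapped. It took 3.42% ± 0.343 (SD, n = 10 embryos) of all counts at E3.5, with 2.99%, 3.31% and 3.93% as lowest, median and highest value. In E4.5 epiblast-like cells it took 5.02% ± 0.363 (n = 5), and in PrE-like cells of the same embryos 4.48% ± 0.594 (n = 5). No E3.5 embryo reached the lowest E4.5 epiblast-like embryo (4.55%), whereas the lowest PrE-like embryo (3.65%) lay within the E3.5 range. For the epiblast-like class the share was 4.09% ± 0.260 (n = 8) at E5.5 and, later, 3.20% ± 0.701 (n = 12) at E6.5. The endoderm-like class had 3.19% ± 0.575 at E6.5 (n = 8). The E3.5 embryos parted by plate, with 2.99 to 3.19% in 5 embryos of plate P8 and 3.70 to 3.93% in 4 embryos of plate P9. At E6.5 the spread was wide, and 2 of 12 epiblast-like embryos lay apart at 4.48% and 4.57%. The first of these, embryo 9 of plate P3, also had the lowest normalization factor of all sums (0.703), and its share was 3.51% when each cell was thinned to 150000 counts.

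The complexes differed in how far their mean levels moved, which is given here with no test. Complex IV genes summed to 8648 ± 1198 CPM at E3.5, 13506 ± 901 CPM in E4.5 epiblast-like cells and 6795 ± 1476 CPM in E6.5 epiblast-like cells. Complex I genes went from 10572 ± 1204 CPM over 16124 ± 1950 CPM to 10468 ± 2615 CPM in the same classes. Complex II, the only complex shared with the citric acid cycle, went from 858 ± 190.6 CPM over 1140 ± 165.2 CPM to 1067 ± 202.8 CPM. ATP synthase genes summed to 9113 ± 1336, 11481 ± 865 and 8344 ± 1688 CPM. Members were also ranked per kb of transcript, which allows for length but not for reads lost because processed pseudogenes share them. The highest member was Cox4i1 at E3.5 (4289 ± 1404 CPM per kb) and at E4.5 in epiblast-like cells (3652 ± 365). In E6.5 epiblast-like cells it was Ndufa4 (2933 ± 1496), a small subunit that joins complex IV, and Cox4i1 had the rank of 5 with 1697 ± 500 CPM per kb, a difference smaller than the spread of the first.

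**Figure D1:**
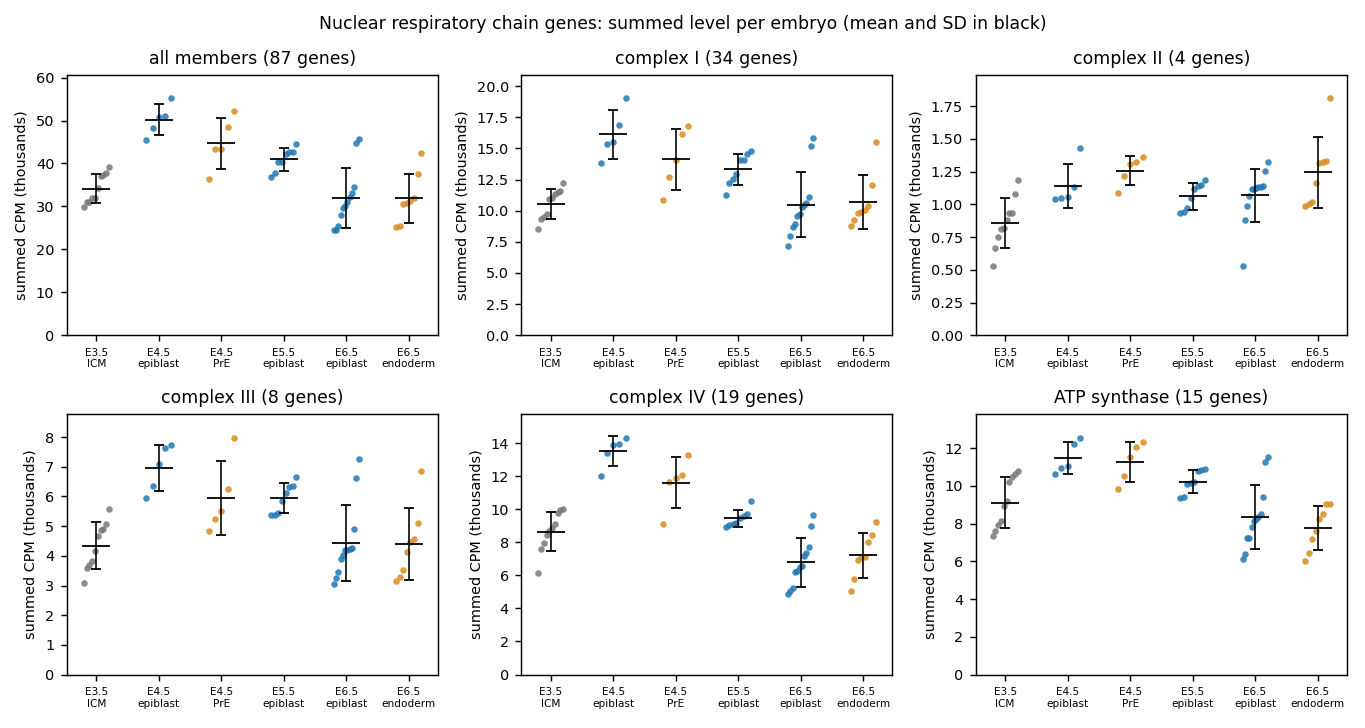
Summed level of the members of each complex in CPM (vertical axis from 0, divided by 1000) for each embryo (points) in 6 classes of cells, with the mean and SD in black (grey, ICM; blue, epiblast-like; orange, PrE-like or endoderm-like). The E4.5 epiblast-like means are the highest for complexes I, III and IV and ATP synthase (16124, 6953, 13506 and 11481 CPM). For complex II the E4.5 PrE-like mean is the highest (1256 CPM). In the panel of all members 2 of 12 E6.5 epiblast-like embryos lie apart.

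The first comparison follows the ICM into its lineages. From E3.5 to E4.5, 37 of the 83 members tested were higher in epiblast-like cells and 2 were lower, at an adjusted p of at most 0.05 in edgeR's quasi-likelihood test over all genes, which is what called means below. Of all 13718 genes tested, 14.2% were called higher and 7.84% lower. Here and below, such shares belong to the adjusted calls of the main fit, and none is given for counts at an unadjusted p or in alternatives. In PrE-like cells 29 members were higher and none lower, against 13.5% and 7.06% of all genes, and at an unadjusted p under 0.05 the count of lower members was 4 there, and DESeq2 called 1 lower. Over the members the median log2 fold change was 0.63 for the epiblast-like class and 0.43 for the PrE-like one, against 0.00 and 0.11 over all genes. The calls covered 27 members in both classes, 10 in epiblast-like cells alone and 2 in PrE-like cells alone, and the 2 comparisons share the E3.5 embryos. The number of calls moved with the E3.5 embryos used. Against the 4 embryos of plate P9 alone 17 members were higher and 2 lower in epiblast-like cells and 5 were higher in PrE-like cells. At an unadjusted p under 0.05, 29 and 19 members were higher in the 2 classes against plate P9 alone, and 43 and 37 against plate P8 alone. The plate and the smaller number of embryos were not told apart. Without E4.5 embryo 2, 19 members were called higher in PrE-like cells. With at least 5 cells in a sum, which leaves out all embryos of plate P8, 19 members were higher and 2 lower in epiblast-like cells and 13 were higher in PrE-like cells.

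Complex IV had the largest share of calls, with 12 of its 15 tested members higher in epiblast-like cells and 9 in PrE-like cells. Both counts include Cox7b2 and Ndufa4l2, which had no count at E3.5 and 51 and 28 counts over the PrE-like sums. The Ndufa4l2 call in PrE-like cells was kept in 7 of 15 alternatives. A further 4 complex IV paralogs were too low to be tested. Cox6b1, a small subunit at the cytochrome c face, had 358, 626 and 856 CPM as lowest, median and highest value at E3.5. Its 5 E4.5 epiblast-like embryos lay between 1197 and 1908 CPM, above all E3.5 embryos, and it rose by a log2 fold change of 1.35 (SE 0.21, adjusted p = 3.54e-06). In PrE-like cells it rose by 1.09 (SE 0.21, adjusted p = 0.000131). Cox6c rose by 1.38 (SE 0.26, adjusted p = 6.97e-05) in epiblast-like cells, and Cox5a, a nuclear subunit on the matrix side, by 1.11 (SE 0.22, adjusted p = 0.000145). The main form of subunit 4, Cox4i1, was already at 3238 ± 1060 CPM at E3.5 and was at 2757 ± 275.4 CPM in E4.5 epiblast-like cells (log2 fold change -0.23, SE 0.20, not called).

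In complex I, 12 of 34 subunits were called higher in epiblast-like cells and 10 in PrE-like cells, all of them accessory. Ndufs4, an accessory subunit of the NADH-oxidising arm, had 42.5 CPM in the lowest and a median of 150.9 CPM in the 10 E3.5 embryos. The E4.5 epiblast-like embryos had 354, 426, 519, 593.5 and 599.9 CPM, and those of the PrE-like class 222.8, 296, 345, 360 and 382 CPM. The epiblast-like embryos lay above all E3.5 embryos and the PrE-like class met the highest of them at its lowest embryo (on unscaled CPM it lay above them, at 239.7 to 389.1 against at most 238.1 CPM), and Ndufs4 rose by 1.82 (SE 0.28, adjusted p = 1.95e-06) and by 1.18 (SE 0.28, adjusted p = 0.00142). Ndufb6, of the membrane arm, rose by 1.69 (SE 0.29) towards the epiblast and 1.29 (SE 0.29) towards the PrE, and Ndufa2 by 1.35 (SE 0.25) and 1.36 (SE 0.25). Ndufa9 fell by 0.86 (SE 0.30, adjusted p = 0.0334) in epiblast-like cells. Some subunits that hold the flavin or iron-sulphur clusters gave other values, with log2 fold changes in epiblast-like cells of -0.55 for Ndufs1, -0.16 for Ndufs7 and -0.22 for Ndufv1, none of which was called. None of the 4 assembly factors was called either, with log2 fold changes of -0.68 to 0.94 in epiblast-like cells.

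In complex III the largest rise in both classes was that of Uqcr11. Uqcr11, the smallest subunit of complex III, had 210, 384 and 800 CPM as lowest, median and highest value at E3.5 and lay between 882 and 1503 CPM in the 5 E4.5 epiblast-like embryos and between 951 and 1687 CPM in the PrE-like ones. Both classes lay above all E3.5 embryos, with log2 fold changes of 1.47 (SE 0.24, adjusted p = 8.13e-06) and 1.48 (SE 0.24, adjusted p = 5.91e-06). Of the core proteins of complex III, Uqcrc1 was at 1113 ± 401 CPM at E3.5 and 886 ± 114.9 CPM in E4.5 epiblast-like cells and Uqcrfs1, the Rieske iron-sulphur protein, at 356 ± 122.9 and 315.5 ± 80.7 CPM, neither of them called. In complex II, the membrane anchor Sdhc rose by 1.0 (SE 0.37, adjusted p = 0.0451) and 1.31 (SE 0.37, adjusted p = 0.00768), and the iron-sulphur subunit Sdhb by 0.70 (SE 0.24) and 0.72 (SE 0.24). In epiblast-like cells these calls were kept in 6 (Sdhc) and 9 (Sdhb) of 16 alternatives. By contrast the flavoprotein Sdha was not called (-0.43, SE 0.31 and -0.17, SE 0.30). In ATP synthase, Atp5e of the central stalk rose by 0.94 (SE 0.23) and 1.11 (SE 0.23) and Atp5d, its neighbour there, fell by 1.07 (SE 0.34, adjusted p = 0.0168) in epiblast-like cells. The catalytic subunit Atp5b had 1733 ± 426 CPM at E3.5, 1640 ± 174.9 CPM in E4.5 epiblast-like and 1760 ± 444.4 CPM in PrE-like cells and was called in none of the 7 comparisons.

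**Figure D2:**
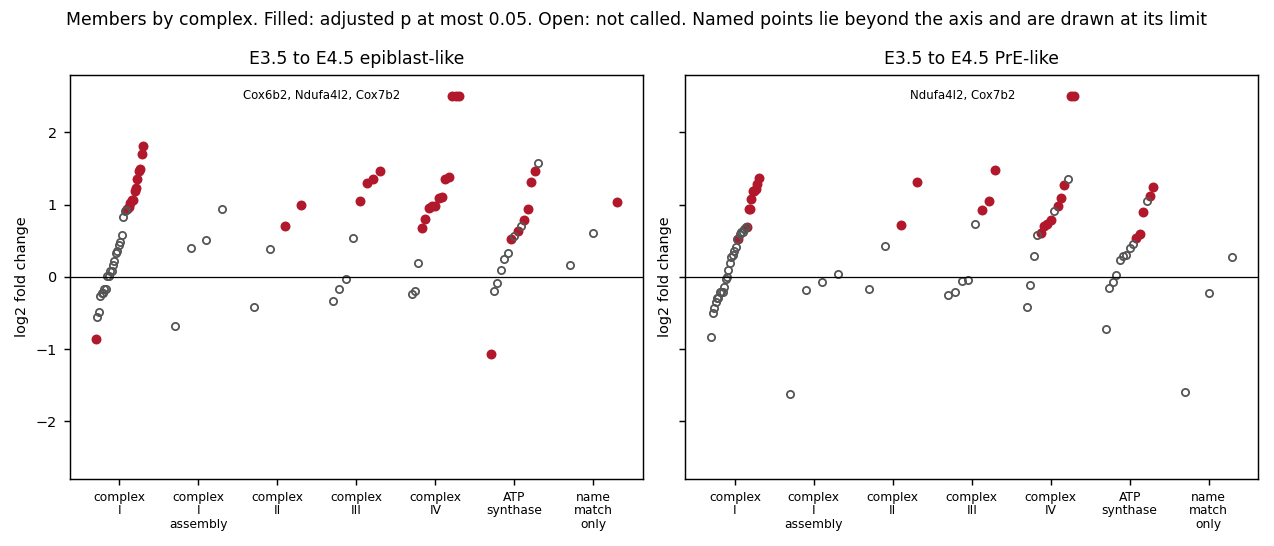
Log2 fold change from E3.5 ICM to E4.5 epiblast-like (left) and PrE-like cells (right) of the 83 members tested, grouped by complex (filled, adjusted p at most 0.05; open, not called). In the left panel 12 of 15 complex IV members are filled and above 0, and named members lie beyond the axis.

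Transcript length moved with these changes. Across the 83 members, which share libraries and so are not independent replicates, the log2 fold change from E3.5 to E4.5 epiblast-like cells and transcript length had a Spearman correlation of -0.42, against 0.04 over 12318 genes. Members of up to 600 nt had a median log2 fold change of 1.02 (22 members), against 0.68 for the 381 genes of that length, of which 28.9% were called higher. Members over 1000 nt had a median of 0.13 (34 members), against 0.00 for 11111 genes. The part of length in the rise was not tested.

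Promoters of 68 members were matched by symbol to RefSeq windows of GRCm38.p6, 250 bases before to 50 bases after the gene start, and compared with 25748 promoters of chromosomes 1 to 19. The core of the factor NRF1, GCGCATGC, stood on either strand in 16.2% of the member windows and in 2.8% of all windows. The YY1 core AAGATGGC stood in 11.8% and 2.87%, the GABPA core CCGGAAGT in 7.35% and 4.08%, and the ESRRA core TCAAGGTCA in 2.94% and 0.412%. Of the 68 members these were 11 for NRF1, 8 for YY1, 5 for GABPA and 2 for ESRRA. All windows were not matched to the members by CpG, of which 64 members had a median of 20 and all windows 7. The part of CpG in these shares was not tested. The NRF1 core can overlap itself on the opposite strand, as in the first line below. All 8 YY1 matches of members lay on the strand of the gene, 22 to 38 bases after its start, whereas 17.5% of the 758 matches in all windows lay on that strand and 20 to 40 bases after the start. In all 8 members the ATG inside the YY1 letters is the start codon in the GENCODE annotation, so these letters are also the first codons of the protein. The lines show 5 of these stretches in gene direction with the YY1 core in capitals, for subunits of complex I of which Ndufs4 led the rise, Ndufa9 fell and Ndufs7 was not called, after an NRF1 stretch of the complex III core gene Uqcrc1 and before an ESRRA stretch (on the other strand) of Atp5g3. They come from chr9:108936668-108936697 (plus strand), chr13:114388045-114388074 (minus), chr6:126849097-126849126 (minus), chr10:80249462-80249491 (plus), chr13:73328433-73328462 (minus), chr7:3617384-3617413 (plus) and chr2:73911359-73911388 (minus).
Uqcrc1: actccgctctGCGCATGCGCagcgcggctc
Ndufs4: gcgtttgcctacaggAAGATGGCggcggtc
Ndufa9: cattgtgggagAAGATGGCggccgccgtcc
Ndufs7: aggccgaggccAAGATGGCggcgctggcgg
Ndufs6: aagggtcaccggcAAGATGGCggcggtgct
Ndufa3: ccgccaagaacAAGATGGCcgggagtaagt
Atp5g3: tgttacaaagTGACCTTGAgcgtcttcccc

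In the fit of all classes, which takes no account of the embryo, PrE-like and epiblast-like cells of the same E4.5 embryos differed in few members. None was called higher and 2 were lower in PrE-like cells, against 3.77% and 3.94% of all genes, and at an unadjusted p under 0.05 the counts were 2 and 7. DESeq2 also called none higher and 2 lower. Cox5a had 463, 525, 528, 626 and 653.5 CPM in the PrE-like sums and 830, 876, 1011, 1068 and 1151 CPM in the epiblast-like sums. The classes did not overlap, and Cox5a was lower by a log2 fold change of -0.82 (SE 0.26, adjusted p = 0.0413). The non-subunit Cox4nb was lower by -1.26 (SE 0.29, adjusted p = 0.00466). In a fit of these embryos alone, 5 members were called lower. With the embryo as a replicate block 9 were lower and 1 higher, and at an unadjusted p under 0.05 the counts were 24 and 6. With any single E4.5 embryo left out, 1 member was called, and Cox5a lost its call each time (kept in 8 of 15 alternatives, Cox4nb in 15 of 15).

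In the epiblast, more members were called lower than higher at both later steps. From E4.5 to E5.5 no member was called higher and 5 were lower, against 2.89% and 2.93% of all genes, and at an unadjusted p under 0.05 the counts were 0 and 18. DESeq2 called none higher and 9 lower. The 5 members in edgeR were Ndufb4 (fell by 1.47, SE 0.44), Cox6c (fell by 1.07, SE 0.27), Uqcrb (fell by 1.04, SE 0.32), Uqcr10 (fell by 0.91, SE 0.26) and Cox6b1 (fell by 0.83, SE 0.22), all accessory subunits of complexes I, III and IV. The count rested on single embryos and on the samples fitted. It was 1 without E4.5 embryo 3 and without embryo 4 and 3 without embryo 2 and without embryo 5. With only these 2 classes in the fit, however, 25 members were lower and 2 higher. No share over all genes stands beside these or the unadjusted counts.

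From E5.5 to E6.5, 11 members fell and 1 rose in epiblast-like cells, against 5.44% and 5.1% of all genes. Uqcrc1, a core protein of complex III, had 935, 1175 and 1573 CPM as lowest, median and highest value in the 8 E5.5 embryos and 290, 421 and 797 CPM in the 12 E6.5 embryos. The stages did not overlap, and it fell by 1.49 (SE 0.19, adjusted p = 4.44e-07). Cox4i1 had 1892, 2118 and 2798 CPM at E5.5 and 823, 1285 and 2191 CPM at E6.5 and fell by 0.77 (SE 0.16, adjusted p = 0.000856), with its highest E6.5 embryo, embryo 9 of plate P3, inside the E5.5 range. That overlap came with the normalization factor of 0.703, since on unscaled CPM the highest E6.5 embryo had 1538 CPM and the lowest E5.5 embryo 1980 CPM. Cox6c fell by 0.92 (SE 0.22). The member that rose was Atp5g3, which encodes the c-ring subunit of ATP synthase, from 358 ± 55.9 CPM (n = 8) to 641 ± 333 CPM (n = 12), by 0.84 (SE 0.23, adjusted p = 0.00979). Without embryo 9 of plate P3, 18 members were lower and 1 higher, and with only the E6.5 embryos whose titles name no plate, 2 were lower and 1 higher.

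In the endoderm 11 members fell between E4.5 and E6.5 and none rose, against 7.55% and 5.58% of all genes, and at an unadjusted p under 0.05 the counts were 29 and 1. DESeq2 called 14 lower and none higher. Cox6c had 769, 1458, 1492, 1533 and 1592 CPM in the E4.5 PrE-like sums and a median of 361 CPM and a highest value of 621 CPM in the 8 E6.5 endoderm-like sums. It fell by 1.78 (SE 0.27, adjusted p = 7.4e-06) without overlap. Cox7c fell by 1.35 (SE 0.27), Atp5e by 1.12 (SE 0.24), Cox4i1 by 1.02 (SE 0.20) and Uqcrc1 by 0.96 (SE 0.24). The members Cox4i1, Cox6c, Cox7c, Cox8a and Uqcrc1 fell both here and from E5.5 to E6.5 in the epiblast, and these comparisons share no sums, although E6.5 sums of both come from the same embryos. Without E4.5 embryo 2, 4 or 5, 6 members were lower, and with all cells thinned to 150000 counts 26 were. No share over all genes stands beside these or the unadjusted counts.

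**Figure D3:**
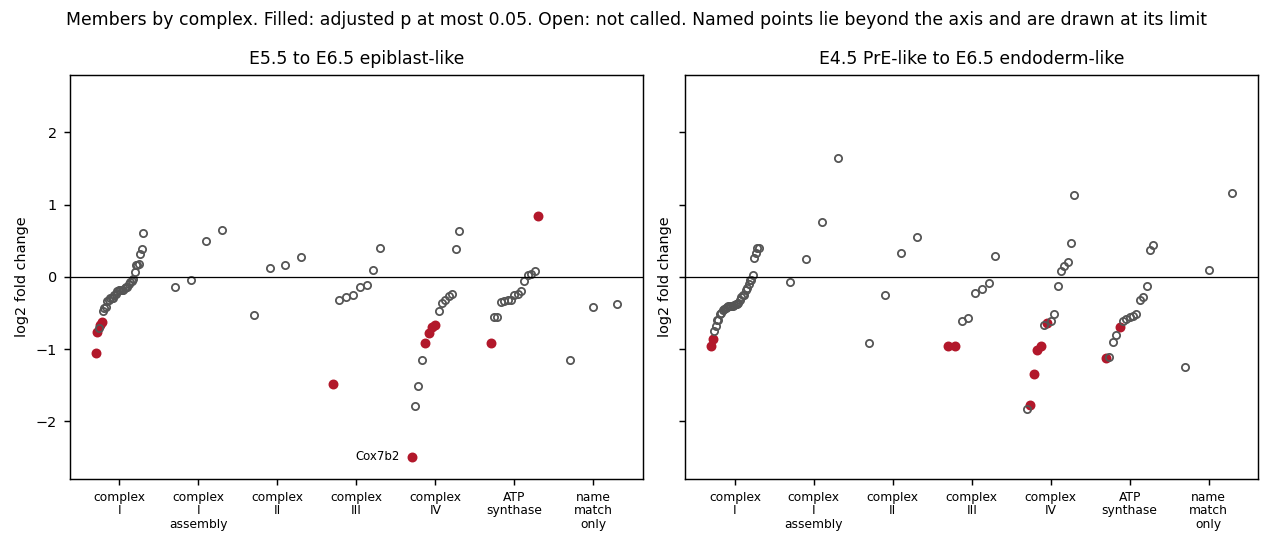
Log2 fold change of the 83 members tested from E5.5 to E6.5 in epiblast-like cells (left) and from E4.5 PrE-like to E6.5 endoderm-like cells (right), grouped by complex (filled, adjusted p at most 0.05; open, not called). Filled points lie below 0 in both panels, except Atp5g3 at 0.84 on the left, and Cox7b2 lies beyond the axis.

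At E6.5 the lineages differed in few members again, with 1 higher and 5 lower in endoderm-like cells, against 7.42% and 10.4% of all genes. The median over all genes was -0.17, and with relative log expression scaling it was -0.06 and 7 members were higher and 4 lower, so the balance of directions depended on the scaling. With edgeR on only the embryos whose titles name no plate, no member was called (3 higher and 3 lower at an unadjusted p under 0.05). The same held with only embryos that hold both classes (9 higher and 2 lower at an unadjusted p under 0.05). With the embryo as a replicate block, 2 were higher and 1 lower. The member higher in endoderm-like cells was Cox7a1 (log2 fold change 2.07, SE 0.59, adjusted p = 0.012), a call kept in 11 of 15 alternatives. The endoderm-like class joins 2 clusters, of 29 cells (all on named plates) and of 17 cells (3 on named plates). Their mean log2 levels of anterior visceral endoderm markers (Cer1, Lefty1, Hhex and Dkk1) were 4.945 and 1.177. The part of these clusters in the call was not tested. Cox7a2l, known for its role in respiratory supercomplexes, was lower by -0.74 (SE 0.23, adjusted p = 0.018), and so were the assembly factors Ndufaf2 (-0.86, SE 0.26) and Ndufaf4 (-0.81, SE 0.29). These 3 calls were kept in 8, 5 and 3 of 15 alternatives. The change from E4.5 to E6.5 was compared between lineages in the same fit. It differed for 1 member, Cox5a, by 1.29 (SE 0.32, adjusted p = 0.0181), against 1.36% of genes higher and 1.77% lower and a median of -0.24 over all genes. Cox5a went from 987 ± 133.4 CPM to 467 CPM (range 225.2 to 915.2) in the epiblast and from 559 ± 78.6 to 646 ± 121.6 CPM in the endoderm.

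Paralogs, mostly of complex IV subunits, were set against each other as the log2 ratio of their CPM (plus 0.5) in each embryo. Where both lie well above 0.5 CPM, the ratio hardly depends on scaling. Where the second paralog has no count, it follows the level of the first alone. Of 66 ratios tested between classes with exact two-sided permutation tests over embryos, 10 passed an adjusted p of 0.05. In these pairs, Cox7a2l and the Atp5g genes aside, the alternative form gave at most 5.69% of the counts of a pair in any class. Cox4i2, the hypoxia-inducible subunit 4, had 0 to 3.34 CPM in any sum, and Cox6a2, Cox8b and Cox8c had at most 2.001 CPM, so these 4 genes were too low for the test across genes. The ratios of Cox6a1 to Cox6a2 and of Cox8a to Cox8c passed from E4.5 to E5.5. The second paralogs had no count in the E4.5 epiblast-like sums and 68 and 95 counts over the 8 E5.5 sums. At E4.5 these ratios thus give the levels of Cox6a1 and Cox8a alone. With single cells only, the Cox8c ratio lost its call (-0.77, exact permutation test, adjusted p = 0.0673).

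Cox6b2 and Cox7b2, subunits best known from testis, had their highest mean levels in the epiblast-like class at E4.5 and E5.5. Cox6b2 had 12.4, 16.98, 17.7, 27.6 and 28.9 CPM in the E4.5 epiblast-like sums and 16.8, 25.9 and 32.2 CPM as lowest, median and highest value at E5.5. At E3.5 its median was 1.14 CPM, with 1 embryo at 16.3 CPM, and at E6.5 its medians were 8.11 CPM in epiblast-like and 8.76 CPM in endoderm-like cells. It rose from E3.5 to E4.5 epiblast-like cells by 2.83 (SE 1.04, adjusted p = 0.0423), a call kept in 8 of 16 alternatives. The log2 ratio of Cox6b1 to Cox6b2 fell by 1.16 from E4.5 to E5.5 in epiblast-like cells (exact permutation test, n = 5 and 8, adjusted p = 0.041), a call lost with single cells only (-1.05, exact permutation test, adjusted p = 0.0673). It then rose by 2.30 from E5.5 to E6.5 (exact permutation test, n = 8 and 12, adjusted p = 0.00978), with overlap between the stages in both cases.

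Cox7b2 had no count in the 10 E3.5 sums, which allows up to 0.0514 CPM over the class. The E4.5 epiblast-like embryos had 0, 0, 3.77, 9.38 and 61.1 CPM, and the level was thus at least 448-fold higher over that class, or at least 90.1-fold without embryo 5 (3 counts over E3.5 as the floor). At E5.5 it lay between 5.61 and 62.9 CPM in 8 of 8 embryos, with counts in 95 cells. It fell from E5.5 to E6.5 by 6.54 (SE 1.35, adjusted p = 0.000784), to at most 1.24 CPM in 12 epiblast-like embryos, without overlap. Its usual partner Cox7b lies on the X chromosome, which is not analysed here.

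Cox7a1, the muscle form of subunit 7a, ran the other way. It had 13.2, 34.9 and 75.1 CPM as lowest, median and highest value at E3.5, 40.8, 59.5, 62.2, 71.9 and 124.2 CPM in E4.5 PrE-like sums and 18.8 to 67.8 CPM in the epiblast-like sums of the same embryos. In epiblast-like cells it lay between 7.60 and 16.4 CPM at E5.5 and between 0 and 12.8 CPM at E6.5, whereas E6.5 endoderm-like sums held 2.502, 11.6 and 58.3 CPM as lowest, median and highest value. The log2 ratio of the liver or ubiquitous form Cox7a2 to Cox7a1 rose by 1.52 from E4.5 to E5.5 in epiblast-like cells (exact permutation test, n = 5 and 8, adjusted p = 0.0228). With single cells only the rise was 1.69 and missed the threshold (exact permutation test, adjusted p = 0.0589). The ratio was lower by -2.40 in E6.5 endoderm-like than in epiblast-like cells (exact permutation test, n = 12 and 8, adjusted p = 0.0228), with overlap in both cases. That test took the 20 sums as independent, although 7 embryos supply both classes. Within these embryos the ratio was lower in endoderm-like cells in 7 of 7, by a mean of -3.18 (SD 2.06). An exact sign-flip permutation test over them, added after the data were seen, gave p = 0.0156, the smallest it can give, and an adjusted p of 0.297 over 19 such ratios. Their upstream sequences differ in CpG, shown because promoters of the alternative paralogs (Cox6b2, Cox7a1, Cox7b2 and Cox8b) held a median of 8.5 CpG in their 300 bases, those of the other 64 matched members 20 and all promoters 7. The lines give the 250 bases before each start (GRCm38.p6, gene direction, CpG in capitals, 4 in the first and 14 in the second), from chr7:30183921-30184170 (plus strand) and chr9:79759854-79760103 (minus strand).
Cox7a1: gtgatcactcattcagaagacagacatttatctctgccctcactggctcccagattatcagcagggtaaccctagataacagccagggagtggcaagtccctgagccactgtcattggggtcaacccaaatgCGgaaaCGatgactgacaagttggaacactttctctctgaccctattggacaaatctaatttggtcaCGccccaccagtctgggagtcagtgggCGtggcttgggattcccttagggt
Cox7a2: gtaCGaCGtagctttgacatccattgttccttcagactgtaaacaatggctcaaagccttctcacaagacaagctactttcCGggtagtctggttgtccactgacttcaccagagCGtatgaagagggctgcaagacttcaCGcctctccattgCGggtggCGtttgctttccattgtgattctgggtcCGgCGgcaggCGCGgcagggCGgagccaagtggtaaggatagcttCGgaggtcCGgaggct

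**Figure D4:**
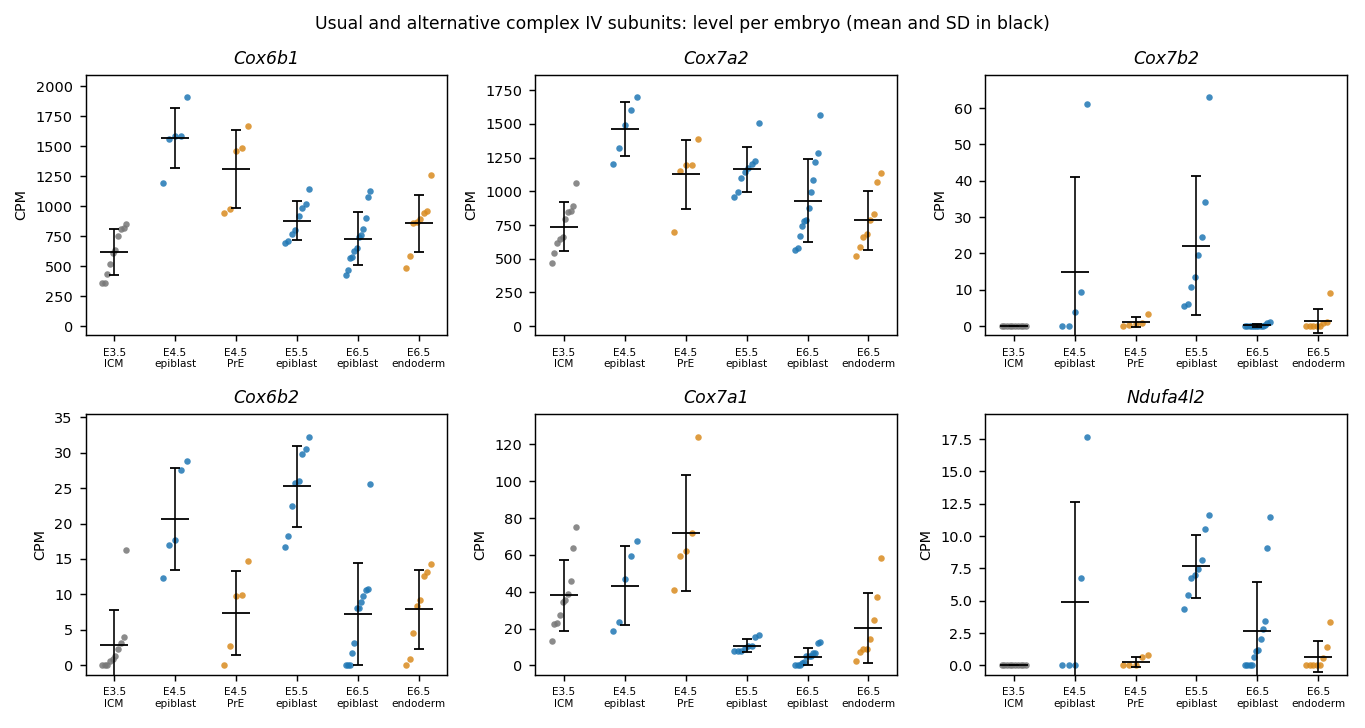
Level in CPM divided by the normalization factor (vertical axis) of the ubiquitous Cox6b1 and Cox7a2 and of the alternative Cox7b2, Cox6b2, Cox7a1 and Ndufa4l2 in each embryo (points) of 6 classes, with mean and SD in black. Cox6b2 and Cox7b2 are high in E5.5 epiblast-like embryos (medians 25.9 and 16.5 CPM) and Cox7a1 is highest in E4.5 PrE-like embryos.

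Other pairs moved as well. Ndufa4l2, a hypoxia-inducible relative of Ndufa4, had no count at E3.5, 0, 0, 0, 6.73 and 17.7 CPM in E4.5 epiblast-like embryos and 4.37 to 11.6 CPM in all 8 E5.5 embryos. It was at least 52.4-fold higher in E4.5 epiblast-like cells than at E3.5, or at least 25.4-fold without embryo 2. The log2 ratio of Ndufa4 to Ndufa4l2 rose by 2.44 from E5.5 to E6.5 (exact permutation test, n = 8 and 12, adjusted p = 0.0149). An exon of Ndufa4l2 overlaps Shmt2 on the opposite strand, reads were counted without strand, and Shmt2 itself changed by -2.05 (log2, adjusted p = 0.0108) from E5.5 to E6.5 and by 1.67 (adjusted p = 0.0588) from E3.5 to E4.5 epiblast-like cells. Reads of these 2 genes cannot be told apart there.

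Among the c-ring genes of ATP synthase, which encode the same mature protein, the log2 ratio of Atp5g1 to Atp5g3 in epiblast-like cells fell by 0.98 from E5.5 to E6.5 (exact permutation test, n = 8 and 12, adjusted p = 0.0021). Its mean was 0.57 ± 0.62 at E3.5, 0.78 ± 0.21 at E5.5 but -0.20 ± 0.51 at E6.5. Atp5g2 had mean levels of 1.40 to 4.34 CPM in the 6 classes, a level that reads shared with processed pseudogenes can lower, since the authors' mapping quality filter drops such reads. The ratio of Cox7a2 to Cox7a2l rose by 1.16 from E3.5 to E4.5 epiblast-like cells (exact permutation test, n = 10 and 5, adjusted p = 0.0228) and fell by 0.96 from E5.5 to E6.5 (exact permutation test, n = 8 and 12, adjusted p = 0.0021).

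**Figure D5:**
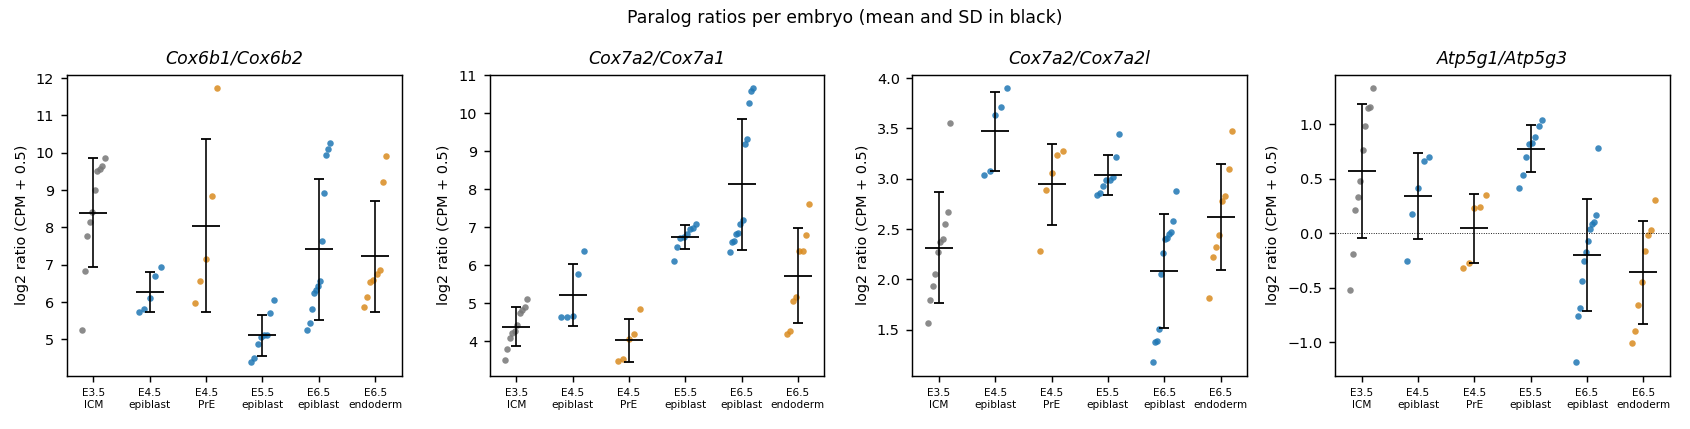
Log2 ratio of paralogs (CPM plus 0.5, vertical axes not from 0) in each embryo (points) of 6 classes, with mean and SD in black. The ratio of Cox7a2 to Cox7a1 is 4.02 ± 0.56 in E4.5 PrE-like and 8.13 ± 1.72 in E6.5 epiblast-like embryos, and that of Atp5g1 to Atp5g3 lies above 0 in all 8 E5.5 embryos.

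Genes that serve the same pathway were counted as lists. Of 13 electron carriers and related mitochondrial genes tested, 3 were higher and 1 lower from E3.5 to E4.5 epiblast-like cells and 4 higher and 2 lower in PrE-like cells. Over all genes 14.2% and 7.84% were called in the first comparison and 13.5% and 7.06% in the second. Cyct, the testis form of cytochrome c, rose from 28.3 to 255.1 CPM (means) in E4.5 epiblast-like cells (log2 3.18, SE 0.64, adjusted p = 0.000227) and fell to 44.2 ± 34.7 CPM from E5.5 to E6.5 (by 2.37, SE 0.55, adjusted p = 0.00235). Its course thus resembled that of Cox6b2 and Cox7b2, a grouping made after the values were seen. The ATP/ADP carrier Slc25a4 was higher in the endoderm at both stages, with 1236 ± 174.4 against 337 ± 84.1 CPM at E4.5 (log2 1.88, SE 0.37, adjusted p = 0.000848) and 722 ± 171.3 against 194.2 ± 155.9 CPM at E6.5 (log2 1.90, adjusted p = 1.04e-06). Atpif1, the inhibitor of ATP synthase, rose from 386 ± 160.5 CPM at E3.5 to 1252 ± 216.5 CPM in E4.5 epiblast-like and 1459 ± 644 CPM in PrE-like cells.

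Fuel use and regulators made up the other lists. Of 14 citric acid cycle genes, 4 were higher in E6.5 endoderm-like than epiblast-like cells (Cs, Idh3b, Suclg1 and Sucla2) and 3 fell from E5.5 to E6.5 in the epiblast (Mdh2, Cs and Ogdh), against 7.42% and 5.44% of all genes in these directions. Of 12 hypoxia-responsive genes, 3 were higher and 1 lower in E4.5 epiblast-like cells than at E3.5, against 14.2% and 7.84% of all genes. In PrE-like cells 4 were higher and 1 lower, against 13.5% and 7.06%. From E4.5 to E5.5 in the epiblast 2 were higher and none lower, against 2.89% and 2.93%. Among those that rose from E3.5 to E4.5 epiblast-like cells, the lactate dehydrogenase gene Ldha went from 20.9 ± 30.95 to 2123 ± 756 CPM (log2 6.63, SE 0.62, adjusted p = 1.21e-11). It reached 2861 ± 1076 CPM in PrE-like cells. Pdk1, a kinase that inhibits pyruvate dehydrogenase, rose from 2.98 ± 3.39 at E3.5 to 60.2 ± 20.2 CPM in E4.5 epiblast-like cells. Of 14 regulators of mitochondrial biogenesis tested, 1 was lower in E4.5 epiblast-like cells than at E3.5 (Esrra, log2 -3.93, adjusted p = 0.0018). Of all genes 7.84% were called lower there. Yy1 rose from 48.8 ± 14.3 to 180.4 ± 94.96 CPM from E5.5 to E6.5 in epiblast-like cells (log2 1.89, adjusted p = 0.000547) while Pprc1 fell by 1.37. They were the only calls of this list in that step, against 5.1% of all genes higher and 5.44% lower. Of 12 complex IV assembly genes, the copper chaperone Cox17 alone was called from E3.5 to E4.5 epiblast-like cells, where it rose by 1.27 (adjusted p = 0.00104). It fell by 1.83 (adjusted p = 6.98e-05) to E5.5. Of all genes 14.2% were called higher in the first step and 2.93% lower in the second. Of 6 assembly genes of complex III and ATP synthase, Tmem70 fell by 2.52 and 2.16 from E3.5 to the E4.5 epiblast-like and PrE-like classes. Of all genes 7.84% and 7.06% were called lower in these comparisons.

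Some sums allowed values side by side but no test. On the plate set named for both E3.5 and E5.5 cells, 2 E5.5 epiblast-like embryos stood against the E3.5 cells. The median log2 difference over members was 0.36 and 0.15, against 0.30 and 0.42 over all genes. Primitive streak-like cells of E6.5 embryo 2 without a plate name (25 cells) stood against its 5 epiblast-like cells. The median was -0.69 over members and 0.51 over all genes. More than a log2 unit lower were 28 of 83 members and 9.36% of all genes. That epiblast-like sum had the highest share of counts on members of all E6.5 sums (4.57%), and the streak-like sum had 2.93%. In an embryo titled E6.75 (3 streak-like cells) the medians were 0.04 and -0.06. In 5 endoderm-like cells of E5.5 embryo 7, set against its epiblast-like cells, the medians were 0.13 over members and -0.72 over all genes.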

How the data were processed

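The authors deposited raw counts of reads per gene for each cell. Reads were trimmed with Trim Galore 0.4.3 and aligned with HISAT2 2.0.5 (submitters' processing notes) to GRCm38, and primary alignments of mapping quality at least 20 were counted in SeqMonk without strand. The authors removed cells with fewer than 4000 genes or a high mitochondrial share, and trophoblast cells. Reads shared with processed pseudogenes are lost by the quality filter, and exons of 25 members overlap another gene's exon.

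Cells were clustered per stage without the members (k-means on 10 principal components of 1500 variable genes, scikit-learn 1.9.0) and named by markers. Doublets were not called, since cells were placed individually, and libraries of 2 cells were kept, with single cells as an alternative. Counts were summed per class and embryo over at least 3 cells and tested with edgeR 4.0.16 (R 4.3.3) in 1 quasi-likelihood fit of 6 classes, with Benjamini-Hochberg adjustment over 13718 genes. Of the 87 members 83 passed the filter on low counts. CPM are counts per 1000000 of a sum, divided for single genes by its normalization factor (trimmed mean of M-values) but not for summed levels, shares, ratios and bounds, and fold changes come from the fit with these factors. Ratios were tested by exact permutation over embryos in Python 3.11.15 (scipy 1.17.1). The scripts were tested on simulated data.

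Classes of the same embryo are paired by that embryo. Their deviations from the class means correlated at 0.022 to 0.124 at E4.5, where 5 of 5 embryos correlated best with themselves, and at 0.0321 to 0.197 at E6.5 (6 of 7).

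Named genes are all paralog pairs, 12 core subunits and the 5 called members with the largest rise and drop in each comparison, and genes of other lists where called. Other members were named after their values were seen. A result under this rule is not reported here. Members, lists and rules were chosen with earlier results of these data known. Alternatives were RLE scaling and DESeq2 1.42.0, no filter, other fits, cell minima, thinning, Ward clustering, plates and left-out embryos. Counting error alone limits genes of few counts. No protein sequences were used here.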

Additional observations from a re-analysis of the deposited data

Results flagged for a closer look

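Among 150 groups of 4 to 10 embryos, 10 held an embryo whose gap to the nearest other exceeded Dixon's 95% limit, and chance alone gives about 7.5 at 1 in 20. Complex II summed to 1428 CPM in E4.5 epiblast-like embryo 5, against 1041 to 1134 CPM in the others. In E6.5 endoderm-like cells it summed to 1810 CPM in embryo 1 without a plate name, against 988.9 to 1328 CPM. E4.5 embryo 1 lay low in PrE-like cells for Atp5e (454.7 CPM, others 790.6 to 924.6) and for Cox6c (768.7 CPM, others 1458 to 1592). Atp5b stood at 2291 CPM in E5.5 epiblast-like embryo 4, against 1646 to 1938 CPM.

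The other such embryos concern paralogs of low level. Cox7b2 stood at 61.09 CPM in E4.5 epiblast-like embryo 5 (others up to 9.378), at 3.42 CPM in PrE-like embryo 2 (others up to 0.758) and at 9.232 CPM in E6.5 endoderm-like embryo 8 of plate P3 (others up to 1.001). Cox6b2 stood at 16.32 CPM in E3.5 embryo 4 of plate P8 (others up to 4.043), and Ndufa4l2 at 3.335 CPM in endoderm-like cells of E6.75 embryo 2 (others up to 1.393).

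The change of Cox5a from E4.5 to E6.5 differed between the lineages by 1.288 on the log2 scale (SE 0.3201, edgeR adjusted p = 0.01815), a contrast added after the data were seen.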

How the results depend on the processing

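Of 1288 alternative values, 1032 were the same by set limits. Among them, 938 values of named members and 17 paralog differences, all called in the main fit, kept direction and call. The rest of the 1032 were counts of calls or shares that stayed near the main value. A further 44 counts or levels moved, 1 value reversed and the others kept the direction but missed the threshold. The reversed one was Ndufaf4 at E6.5 (endoderm-like against epiblast-like), at 0.308 with only embryos without a plate name. The cause was not tested. Of 21 alternatives of called paralog differences 17 kept their call and 3 were lost with single cells only. In 1 more, Cox7a2 to Cox7a1 between the E6.5 lineages (-3.184), the call was lost with the embryo as a replicate block. Its p there was 0.0156, the smallest that the exact sign-flip test over 7 embryos can give before adjustment over 19 ratios. With a pseudocount of 1 CPM 15 differences passed.

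The counts of members called moved as follows. From E3.5 to E4.5 epiblast-like cells (39 members) there were 21 with at least 5 cells in a sum and 19 with E3.5 plate P9 only. From E3.5 to PrE-like cells (29) these gave 13 and 5, and a log2 fold limit of 1 gave 15. Between E4.5 lineages (2) no filter, Ward clustering and the fold limit each gave 1, a fit of the 2 classes or of embryos with both gave 5, and the embryo as a replicate block gave 10. From E4.5 to E5.5 (5) a fit of 2 classes gave 27, DESeq2 9 and the fold limit 3. From E5.5 to E6.5 (12) thinning gave 25, embryos without a plate name 3, leaving out embryo 9 of plate P3 19 and the fold limit 3. Between E6.5 lineages (6) RLE scaling and DESeq2 gave 11, 2 classes 1, the replicate block 3, embryos with both classes 0, at least 5 cells 2, embryos without a plate name 0, merging these with plate P1 2 and the fold limit 1. From PrE-like to E6.5 endoderm-like cells (11) thinning gave 26, embryos without a plate name 7, leaving out E6.75 cells 7 and the fold limit 4. Thinning and smaller fits use fewer counts or samples.

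Leaving out each E4.5 embryo in turn gave 32 to 36, 19 to 28, 1 to 1, 1 to 5 and 6 to 15 calls in the comparisons from E3.5 to epiblast-like and PrE-like cells, between E4.5 lineages, from E4.5 to E5.5 and from PrE-like to E6.5 endoderm-like cells. Stage and plate cannot be told apart, lineages were rebuilt by clustering, and the smallest sums held 3 cells.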
